A study of Rattus norvegicus with 12 samples.

Results

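Heat shock proteins and DnaJ co-chaperones were examined in rat kidneys after ischemia-reperfusion injury (IRI), in which the blood supply is cut off and then restored. A gene was a member if its array row carried exactly 1 symbol starting with Hspa, Hspb, Hspd, Hspe, Hsph, Hsp90 or Dnaj, and 66 of the 18166 genes tested met this rule. The prefix also brings in a few genes that are not chaperones, such as the pseudogene Hsp90aa1-ps2 and the small heat shock protein-associated Hspbap1. By prefix the members were 10 Hspa, 9 Hspb, 3 Hsp90, 4 Dnaja, 12 Dnajb and 25 Dnajc genes, and Hspd1, Hspe1 and Hsph1. The 9 Hspb genes include Hspbap1 and Hspbp1, which share the letters but are not small heat shock proteins. The 3 Hsp90 genes include the pseudogene. By lists of sites of action, set from general knowledge, 29 were assigned to the cytosol and nucleus, 13 to the endoplasmic reticulum (ER) and 7 to the mitochondrion. The other 17 were on none of these lists (other). That class is not a site and may hold proteins of the listed sites, so compartment counts below depend on the lists. Another 5 rows carried a member's symbol together with a second one, so Hspa1a, Hspa1b, Hsp90aa1, Dnajb6 and Dnajc8 were not analysed here.

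The arrays came from 4 groups of 3 kidneys: anti-miR-182 at day 7, placebo at day 7, anti-miR-182 at day 2 and placebo at day 2, with day counted from IRI. Anti-miR-182 is an inhibitor of the microRNA miR-182, and all 4 groups had IRI, so no uninjured kidney serves as baseline. The labels used here name no strain, age or sex of the rats, nor when or how much inhibitor they received. A label on every array speaks of a zero-hour biopsy, against the titles, from which the groups were taken. Replicate numbers only name the arrays, and p-values set a difference of group means against the spread between arrays within groups.

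Chaperones hold unfolded proteins and help them fold. Hsp70 proteins (Hspa genes) bind client proteins in cycles of ATP hydrolysis that J proteins (Dnaj genes) start and nucleotide exchange factors such as the Hsp110 protein Hsph1 end, Hsp90 proteins act on clients later in folding, and small heat shock proteins (Hspb genes) keep clients from aggregating. Each compartment has its own set: the cytosolic set follows heat shock factor 1, the ER set, led by the Hsp70 protein Hspa5 (BiP), follows the unfolded protein response, and the mitochondrial set works around the Hsp70 protein Hspa9 and the Hspd1-Hspe1 folding chamber. In the kidney, tubule cells induce several of these genes after ischemia.

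All values are log2 signals, so a difference of 1 is a doubling. The rows of Hspa8, Hsp90ab1 and Hspd1 stand apart in that RefSeq lists 33, 23 and 20 pseudogenes under their symbols, whose transcripts an array may not separate from the parent gene. On arrays of day 7 the median signal was 5.84 to 5.93, against 5.98 to 6.1 on arrays of day 2, and 190 rows have no values on the day 2 arrays only. If the days were normalized apart, which no label states, day and normalization run cannot be told apart. Members are brighter than most genes, with 50 of 66 in the brighter 50% and 15 in the brighter 10%. Proximal tubule markers averaged 9.43 to 10.76 on all arrays on the log2 scale. Injured tubule markers averaged 8.09 on anti-miR-182 day 2 replicate 3, against 9.07 and 9.19 on the other anti-miR-182 day 2 arrays and 9.25 to 9.48 on placebo day 2 arrays.

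The promoters of 3 ER, 1 mitochondrial and 1 cytosolic member are shown because they hold the 2 kinds of response element known for these compartments. They are the 250 bases before the start in the RefSeq annotation of the rat genome GRCr8, 5′ to 3′ on the gene's strand, with motif matches in capitals. A promoter window of 250 bases before to 50 after the start was matched for 54 of the 66 members. In Hspa5, Hsp90b1 and Dnajc3 the capitals mark CCAAT and CCACG 9 bases apart, the layout of the ER stress element, on either strand, and in Hspe1 and Hspa8 they mark GAANNTTC or TTCNNGAA, units of the heat shock element, which overlap one another there.

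Hspa5 (chr3:38452766-38453015, plus strand): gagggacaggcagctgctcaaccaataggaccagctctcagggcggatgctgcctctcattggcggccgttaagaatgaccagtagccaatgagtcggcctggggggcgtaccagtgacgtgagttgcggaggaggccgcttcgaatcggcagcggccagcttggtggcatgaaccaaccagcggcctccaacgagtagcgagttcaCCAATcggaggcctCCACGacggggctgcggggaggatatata

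Hsp90b1 (chr7:23012294-23012543, minus strand): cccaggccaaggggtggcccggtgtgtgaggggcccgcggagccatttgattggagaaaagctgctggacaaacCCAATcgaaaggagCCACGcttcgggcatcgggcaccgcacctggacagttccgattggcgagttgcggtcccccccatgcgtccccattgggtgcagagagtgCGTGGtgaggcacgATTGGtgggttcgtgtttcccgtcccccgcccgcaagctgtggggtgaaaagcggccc

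Dnajc3 (chr15:102432417-102432666, plus strand): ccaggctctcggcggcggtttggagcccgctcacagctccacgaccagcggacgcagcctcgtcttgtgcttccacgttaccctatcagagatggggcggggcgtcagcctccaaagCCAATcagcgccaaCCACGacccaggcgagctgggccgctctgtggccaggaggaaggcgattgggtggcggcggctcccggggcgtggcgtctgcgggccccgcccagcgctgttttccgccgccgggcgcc

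Hspe1 (chr9:64084077-64084326, plus strand): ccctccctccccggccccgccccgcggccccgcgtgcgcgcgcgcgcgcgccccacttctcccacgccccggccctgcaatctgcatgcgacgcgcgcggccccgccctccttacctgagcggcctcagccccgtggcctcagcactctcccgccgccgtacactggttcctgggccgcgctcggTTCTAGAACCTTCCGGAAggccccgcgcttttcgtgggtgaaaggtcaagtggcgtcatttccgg

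Hspa8 (chr8:50080264-50080513, plus strand): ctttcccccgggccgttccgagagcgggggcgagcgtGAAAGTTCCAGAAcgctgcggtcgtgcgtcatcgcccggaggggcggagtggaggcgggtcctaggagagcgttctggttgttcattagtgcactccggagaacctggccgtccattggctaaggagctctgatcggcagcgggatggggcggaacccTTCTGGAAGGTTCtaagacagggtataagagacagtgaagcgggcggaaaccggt

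The ER stress element occurred in 3 of the 13 ER members (23.08%), in these 3 genes alone among the 54 members, and in 17 of the 14503 tested genes with a promoter window (0.12%). Its first base lies at -43 in Hspa5, at -133 in Dnajc3 and at -176 and -72 in Hsp90b1, counted from the start. A heat shock unit was found in 15 of 54 members (27.78%) and in 2025 of 14503 tested genes (13.96%). At least 2 units occurred in 9 members (16.67%), against 1.89% of tested genes, and these were 6 cytosolic and 3 mitochondrial members. The mitochondrial chaperonin genes Hspd1 and Hspe1 lie head to head on chromosome 9 with starts 290 bases apart, and their promoter windows share 1 run of 18 bases with 3 overlapping units, read as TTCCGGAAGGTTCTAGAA on the Hspd1 strand. A match describes letters in the window and shows no binding.

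No chaperone gene passed the test for treatment at either day. At day 2, 0 of 66 members had an adjusted p under 0.05 (limma, Benjamini-Hochberg over all genes), as did 0% of all genes. At an unadjusted p under 0.05 there were 5 members, 2 higher and 3 lower under anti-miR-182, or 7.58% of members against a background of 6.61% of all genes, a share near the background. Cytosolic members held 4 of the 5, ER members 1 and mitochondrial members 0. The unadjusted count was 10 without anti-miR-182 day 2 replicate 1, 2 without placebo day 2 replicate 2 and 3 without placebo day 2 replicate 3. The share of all genes was not taken with an array left out, here or below, so such counts have no background. When genes were simulated for this comparison with known changes, 83.2% of those changed by 1 were found but 23% of those changed by 0.5. Recovery depends on the noise and the number of changed genes set in the simulation, so these shares hold for that setting. At this number of arrays, differences of 0.5 or less could thus be missed.

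The lowest unadjusted p at day 2 belonged to Hspa2, an Hsp70 protein best known from the testis. It measured 7.56, 7.72 and 6.92 on the anti-miR-182 arrays, against 7.94, 7.80 and 8.11 on the placebo arrays. The groups do not overlap, though the array at 6.92 lies apart from the other anti-miR-182 arrays. Here and below, how many of all genes have separate groups was not counted. Members named for a small p on these same arrays tend to be separate, so separation adds no support. The difference was -0.55 (SE 0.17, unadjusted p = 0.00672, adjusted p = 0.662 by limma), and -0.31 without that array, which is also the one with the low injured tubule markers. Whether these markers have a part in the result was not tested.

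Dnaja2, a J protein that hands clients to cytosolic Hsp70, measured 9.31, 9.48 and 9.73 on anti-miR-182 day 2 arrays, against 9.94, 9.94 and 9.89 on placebo arrays. All anti-miR-182 arrays lie below all placebo arrays, with a difference of -0.42 (SE 0.14, adjusted p = 0.662 by limma). Hsp90ab1, the constitutive cytosolic Hsp90, measured 11.05, 11.10 and 10.80 under anti-miR-182, against 11.13, 11.29 and 11.41 in placebo. Here too the groups are separate, by 0.03 at the nearest pair, and the difference was -0.30 (SE 0.11, adjusted p = 0.735 by limma), or -0.20 without anti-miR-182 replicate 3.

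Dnaja4, another cytosolic J protein, went the other way. It measured 7.60, 7.64 and 7.99 under anti-miR-182 at day 2, against 7.49, 7.32 and 7.38 in placebo, a difference of 0.34 (SE 0.13, adjusted p = 0.722 by limma). Dnajc10, an ER J protein that reduces disulfide bonds of misfolded clients, measured 10.18, 10.53 and 10.39 under anti-miR-182, against 10.16, 10.05 and 10.11 in placebo. Its difference was 0.26 (SE 0.11, adjusted p = 0.754 by limma). The groups are separate for both genes, by 0.02 for Dnajc10.

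The next members in order of p did not reach an unadjusted p of 0.05. Higher values came from Hspa13, an Hsp70-like ATPase of the ER (0.22), Dnajc6, the auxilin that uncoats clathrin vesicles (0.26, but 0.60 without anti-miR-182 replicate 1 and 0.09 without replicate 2), and Dnajc12 (0.15, and -0.00 without anti-miR-182 replicate 3). Lower values came from Dnajc21 (-0.22) and Dnajc2 (-0.21, and -0.13 without anti-miR-182 replicate 1), J proteins tied to ribosomes. Dnajc6 ranged from 6.84 to 7.86 on anti-miR-182 arrays, so its groups overlap.

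Hspa5, the ER marker given for this gene set, measured 11.31, 11.68 and 11.60 under anti-miR-182 at day 2, against 11.29, 11.84 and 11.62 in placebo. The groups overlap almost wholly, with a difference of -0.05 (SE 0.17) that turned to 0.06 without anti-miR-182 replicate 1 and to 0.07 without placebo replicate 2. Hsph1 varied among the arrays of day 2, at 9.21, 9.87 and 9.99 under anti-miR-182 and 9.61, 9.92 and 10.02 in placebo. In both groups replicate 1 was the low one.

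By compartment, day 2 differences were small. The median was -0.07 for cytosolic members (21 of 29 lower under anti-miR-182), -0.02 for ER members (7 of 13 lower; 0.07 without anti-miR-182 day 2 replicate 1), -0.04 for mitochondrial members (5 of 7 lower) and -0.02 for the others (13 of 17 lower). All genes had a median of 0.03, and 7497 of 18166 (41.3%) were lower, against 69.7% of members. Genes of a compartment share arrays and cells, so these counts are a description without a test.

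**Figure D1:**
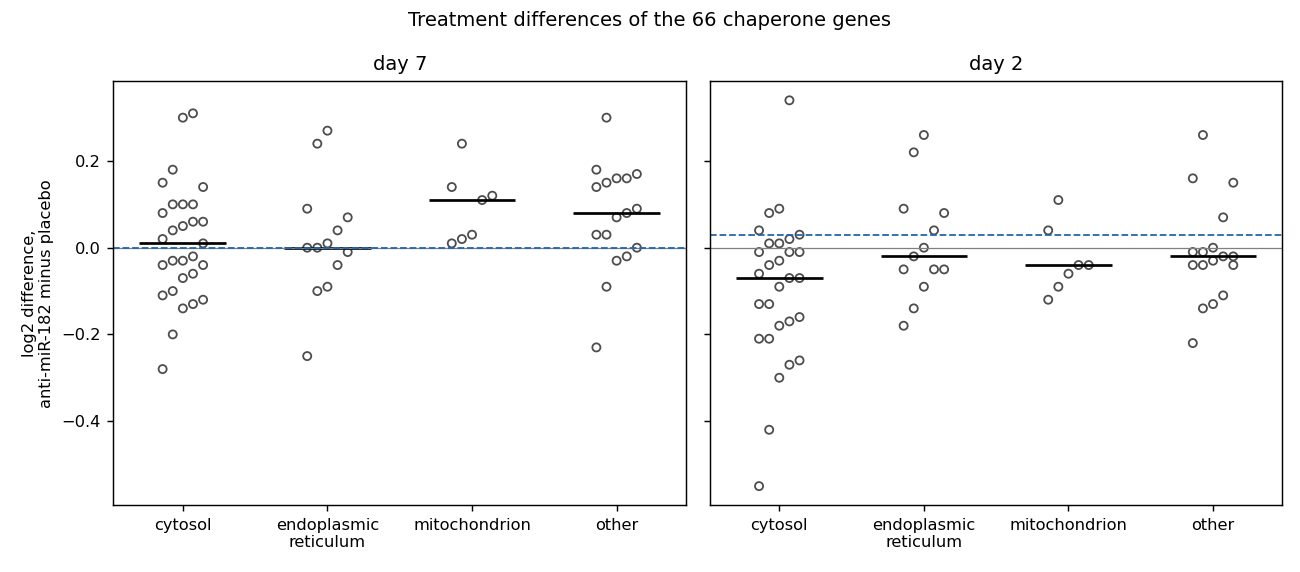
Log2 differences of anti-miR-182 minus placebo (vertical axis) for the 66 members at day 7 (left) and day 2 (right), by compartment. Each open circle is a gene (none passed an adjusted p under 0.05), black bars are compartment medians and the dashed line is the median of all genes. At day 7 all 7 mitochondrial members lie above 0, and at day 2 cytosolic members reach from -0.55 (Hspa2) to 0.34 (Dnaja4).

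At day 7, 0 of 66 members passed, as did 0% of all genes, and 1 member had an unadjusted p under 0.05, or 1.52% against 3.26% of all genes. There were 3 without anti-miR-182 day 2 replicate 1, whose spread enters the shared fit, and 2 without anti-miR-182 day 7 replicate 2 or 3 or placebo day 7 replicate 2. That member was Dnaja4 again. It measured 7.64, 7.34 and 7.51 under anti-miR-182, against 7.23, 7.07 and 7.28 in placebo, so all treated arrays lie above all placebo arrays. The difference was 0.31 (SE 0.13, unadjusted p = 0.0296, adjusted p = 0.999 by limma).

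Hsph1, the Hsp110 exchange factor, measured 9.75, 9.78 and 9.64 under anti-miR-182 at day 7, against 9.52, 9.53 and 9.22 in placebo. These groups do not overlap either (0.30, SE 0.18, adjusted p = 0.999 by limma). Hspa13 (0.27) and Dnajc11, a J protein of mitochondrial membrane organisation (0.24), overlapped between groups, while Hspa12a (0.18) did not. A second, dimmer row of Hspa12a differed by -0.02. On the lower side stood Hspb9 (-0.28), Dnajc25 (-0.25), Dnajc17 (-0.23), Hspa12b (-0.20) and Hspb3 (-0.13), each with overlapping groups. Single arrays decide much of these sizes: Hspb9 had -0.13 without anti-miR-182 replicate 1, Dnajc25 -0.13 and Dnajc17 -0.03 without placebo replicate 3, Hspa12b -0.10 without anti-miR-182 replicate 2 and Hspb3 -0.08 without placebo replicate 2. Hspa5 measured 11.31, 11.44 and 11.21 under anti-miR-182, against 10.86, 11.41 and 10.96 in placebo (0.24, SE 0.17), where placebo replicate 2 lies among the treated arrays. That array also has the highest macrophage markers, at 8.78 against 7.35 and 7.78 on the other placebo day 7 arrays and 7.43 to 7.52 under anti-miR-182, and their part in the result was not tested.

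The median difference at day 7 was 0.11 for mitochondrial members, 0.01 for cytosolic members, 0.00 for ER members and 0.08 for the others, beside -0.00 for all genes. All 7 mitochondrial members were higher under anti-miR-182, from 0.01 to 0.24, where 9039 of 18166 genes (all 66 members: 42) were. Of the marker lists at day 7, 9 of 10 proximal tubule markers were higher under anti-miR-182 (median 0.27). On the anti-miR-182 arrays these markers averaged 10.44, 10.32 and 9.43, against 9.69 to 9.91 in placebo. The array at 9.43, replicate 3, thus lies below every placebo array. Meanwhile 7 of 7 fibroblast markers (median -0.35) and 7 of 7 macrophage markers (median -0.42) were lower. The part of these marker lists in the result was not tested. None of the 7 mitochondrial members reached an unadjusted p of 0.05 and the smallest was 0.124, for Dnajc11. The mitochondrial median was 0.01 without placebo day 7 replicate 3, the array with the lowest signal of all 12 for every mitochondrial member but Dnajc11.

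Averaged over both days, 0 members passed, against 0.0055% of all genes (1 gene). At an unadjusted p under 0.05 there were 4 members, or 6.06% against 5.27% of all genes, and 10 without anti-miR-182 day 2 replicate 1 but 2 without placebo day 2 replicate 1 or 3 or anti-miR-182 day 7 replicate 2. Dnaja4 led with 0.33 (SE 0.09, unadjusted p = 0.00276, adjusted p = 0.77 by limma). It was higher at both days, and its treated and placebo arrays did not overlap at either. That is no further support, since Dnaja4 was named for its p on these arrays. The other 3 were Hspa13 (0.24), Dnaja2 (-0.26) and Hspa2 (-0.29), followed by Dnajc6 (0.28), Dnajc10 (0.13) and Dnajc12 (0.16) above and Dnajc25 (-0.22), Hsp90ab1 (-0.13) and Hspb1 (-0.18) below. Without anti-miR-182 day 2 replicate 3 the means were -0.17 for Hspa2, 0.09 for Dnajc12, -0.13 for Dnajc25, -0.08 for Hsp90ab1 and -0.10 for Hspb1, and that of Dnajc6 was 0.45 without replicate 1 of that group. These means use the same arrays as the results by day and add no independent evidence.

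The treatment difference was then compared between days, as the value at day 7 minus that at day 2. Again 0 members and 0% of all genes passed, and 0 members reached an unadjusted p of 0.05, against 3.92% of all genes. The unadjusted count was 4 without anti-miR-182 day 2 replicate 3, 3 without replicate 1 of that group, 2 without replicate 2, and at most 1 without any other array. Hspa2 came closest, with 0.52 (SE 0.24, unadjusted p = 0.0505, adjusted p = 0.999 by limma) and 0.28 without anti-miR-182 day 2 replicate 3, then Hsp90ab1 (0.33), Hspa12a (0.30) and Dnajc21 (0.29). In its dimmer row Hspa12a had treatment differences of 0.11 at day 2 and -0.02 at day 7, against -0.13 and 0.18 in the row used. Hspa5 had 0.30 (SE 0.24). No difference in the treatment response of a chaperone between days was thus detected, and the size that this comparison could detect was not simulated.

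**Figure D2:**
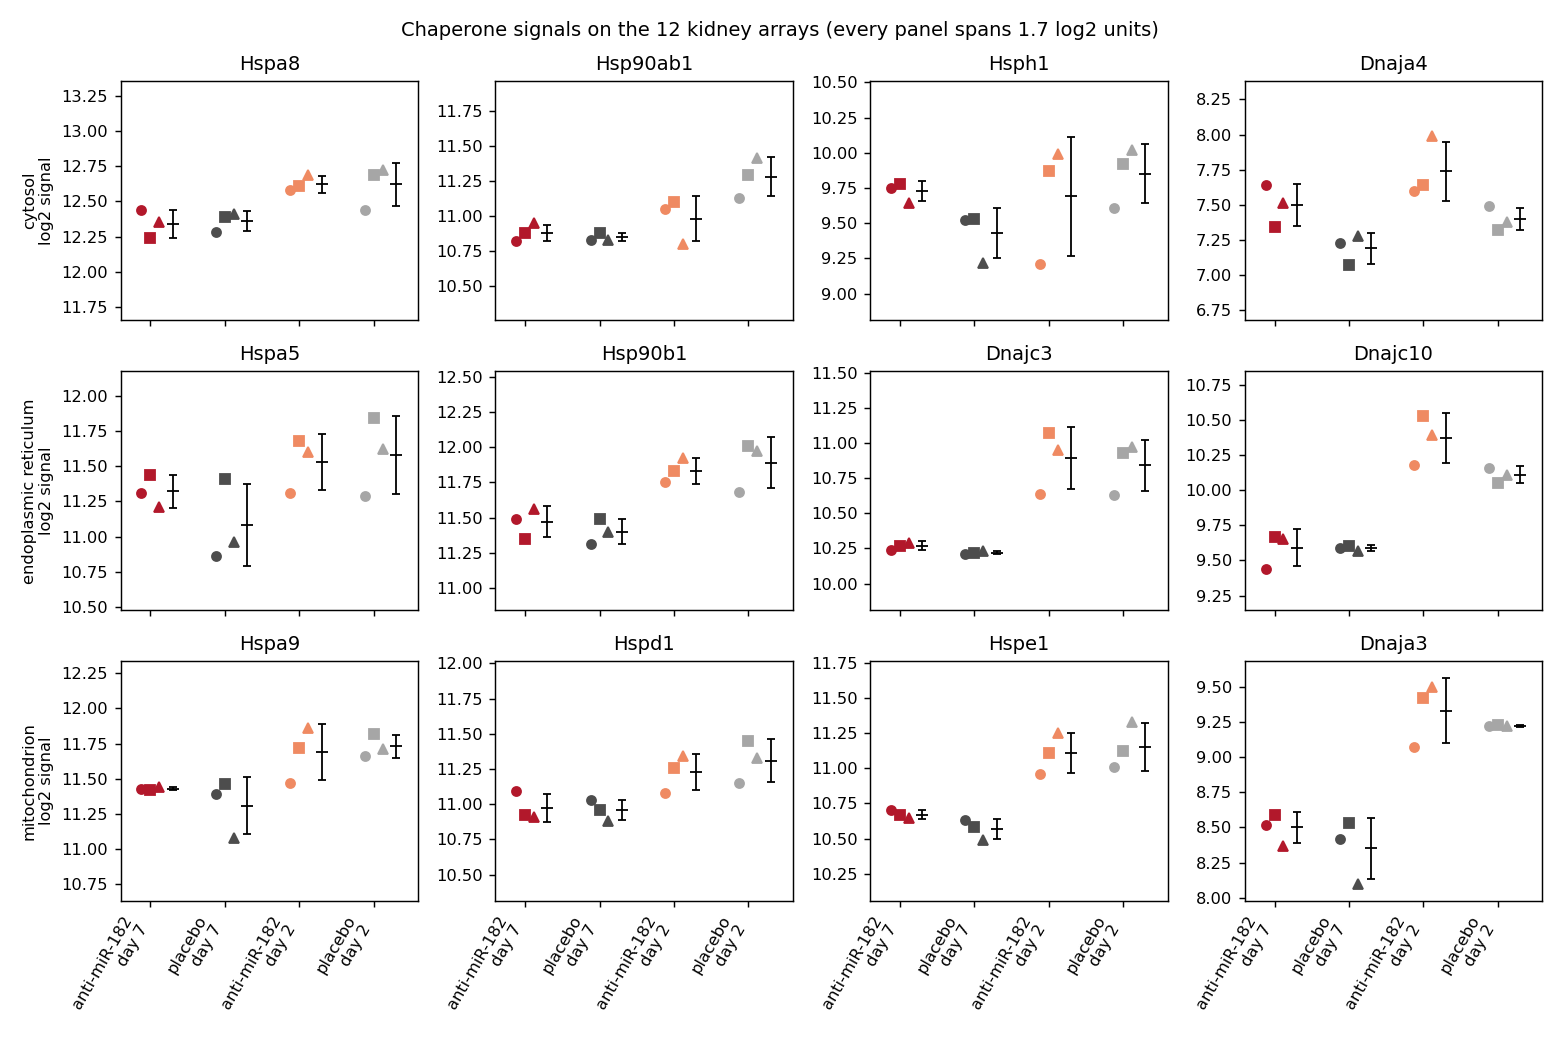
Log2 signal (vertical axis) of 12 chaperone genes on each array, in rows for cytosol, endoplasmic reticulum and mitochondrion. Circles, squares and triangles are replicates 1, 2 and 3, and the bar at the right of each group is the mean with its SD. Dnajc3, Dnajc10 and Dnaja3 have every day 7 array below every day 2 array in both treatments, as do Hspa8, Hsp90b1, Hspa9 and Hspe1, while Hspa5 overlaps.

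Part of the chaperone genes were lower at day 7 than at day 2 in both treatments, as were many other genes, and most of these calls were lost when all arrays were put on 1 distribution. Under anti-miR-182, 19 of 66 members were lower at day 7 at an adjusted p under 0.05 (28.8%) and 0 were higher, against 24.9% of all genes lower and 2.68% higher, a share near the background. In placebo 35 were lower (53.0%) and 0 higher, against 23.7% of all genes lower and 4.22% higher. All 19 were among the 35, or 100% of the anti-miR-182 list and 54.3% of the placebo list. The placebo count was 21 without placebo day 2 replicate 2 and 23 without placebo day 2 replicate 3, and 18 of its 35 calls held with each of the arrays left out in turn, as did 11 of the 19 under anti-miR-182. All genes had a median of -0.21 under anti-miR-182 and -0.18 in placebo, and the brightest 10% of genes, which holds 15 members, shifted by -0.30 under anti-miR-182 and -0.34 in placebo. In bulk tissue, fewer cells of a type and less RNA per cell cannot be told apart.

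**Figure D3:**
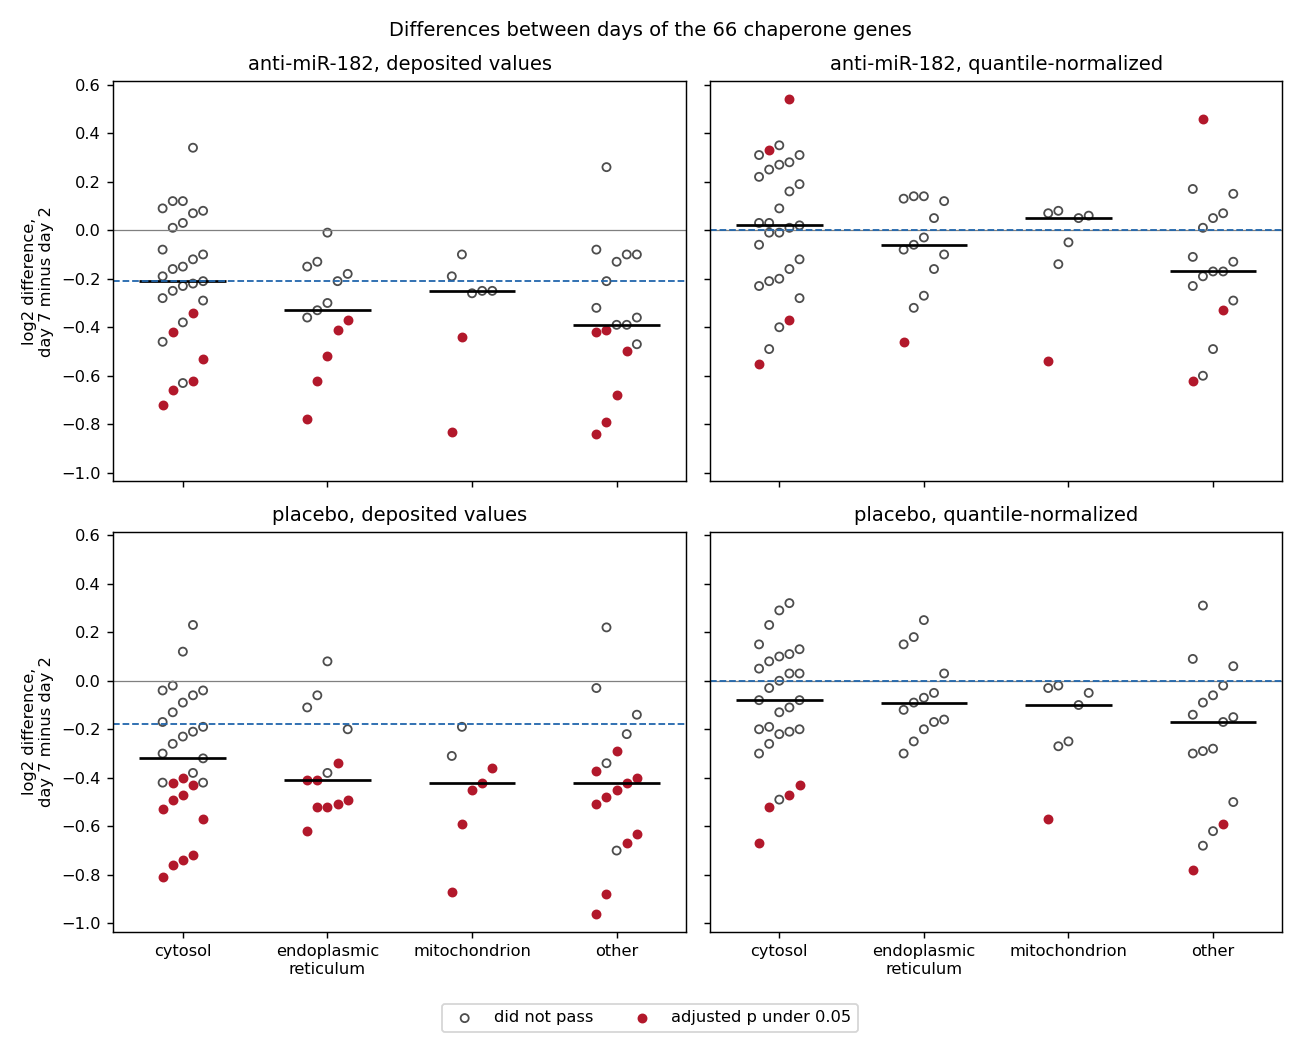
Log2 differences of day 7 minus day 2 (vertical axis) for the 66 members by compartment, under anti-miR-182 (top) and placebo (bottom), from deposited values (left) and after quantile normalization of all arrays (right). Filled circles passed an adjusted p under 0.05, bars are compartment medians and the dashed line is the median of all genes. After quantile normalization most compartment medians come close to 0, and Dnaja3 and Dnajc9 stay among the filled points below.

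By compartment, 6 of 29 cytosolic, 5 of 13 ER, 2 of 7 mitochondrial and 6 of 17 other members fell under anti-miR-182, with medians of -0.21, -0.33, -0.25 and -0.39. In placebo 11, 8, 5 and 11 fell, with medians of -0.32, -0.41, -0.42 and -0.42. Arrays were also put on 1 distribution by quantile normalization, which removes an overall shift. Then 6 members were lower and 3 higher under anti-miR-182, against 7.62% and 7.22% of all genes, and 7 lower and 0 higher in placebo, against 7.9% and 8.14%. These shares of members, 9.09% lower under anti-miR-182 and 10.6% in placebo, are close to the background. Of the lower members 5 were shared by both treatments, 83.3% of the anti-miR-182 list and 71.4% of the placebo list: Dnaja3, Dnajc5g, Dnajc9, Hspa12b and Hspa4l.

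Per array, the median member stood 0.13 to 0.17 below its own mean over all arrays under anti-miR-182 at day 7 and 0.12 to 0.21 below it in placebo at day 7. At day 2 it stood 0.06 to 0.21 above it under anti-miR-182 and 0.18 to 0.20 above it in placebo. The lowest day 2 value, 0.06, is anti-miR-182 replicate 1, and there the mitochondrial median was -0.02, against 0.18 and 0.32 on the other anti-miR-182 arrays. On that array proximal tubule markers were the lowest of day 2, at 10.13 against 10.73 and 10.76 on the other anti-miR-182 arrays and 10.51 to 10.68 in placebo. Distal tubule markers (9.08), collecting duct markers (8.61) and endothelial markers (9.05) were the highest of day 2, and the part of these markers in the result was not tested.

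Dnajc9, a J protein that also escorts histones, had the largest fall in placebo. It measured 6.25, 6.44 and 6.33 at day 7 under anti-miR-182, against 7.18, 7.29 and 6.91 at day 2, and 6.22, 6.08 and 6.26 at day 7 in placebo, against 7.22, 7.16 and 7.08 at day 2. Every day 7 array lies below every day 2 array. The difference was -0.79 under anti-miR-182 (SE 0.12, adjusted p = 0.000742 by limma) and -0.96 in placebo (SE 0.12, adjusted p = 0.000203 by limma). After quantile normalization it was -0.62 under anti-miR-182 and -0.78 in placebo. Cell division markers fell with it, all 6 of 6 in each treatment, with medians of -1.73 under anti-miR-182 and -1.77 in placebo, and their part in the result was not tested.

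Dnaja3, the J protein of mitochondrial Hsp70, measured 8.52, 8.59 and 8.37 at day 7 under anti-miR-182, against 9.07, 9.42 and 9.50 at day 2. In placebo it measured 8.42, 8.53 and 8.10 at day 7, against 9.22, 9.23 and 9.22 at day 2. It fell by 0.83 on the log2 scale under anti-miR-182 (adjusted p = 0.00127 by limma) and by 0.87 in placebo (adjusted p = 0.000908). After quantile normalization it fell by 0.54 under anti-miR-182 and by 0.57 in placebo. It was the only one of the 7 mitochondrial members that passed after quantile normalization, in both treatments.

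Its Hsp70 partner Hspa9 measured 11.43, 11.42 and 11.44 at day 7, against 11.47, 11.72 and 11.86 at day 2 under anti-miR-182, and 11.39, 11.46 and 11.08, against 11.66, 11.82 and 11.71 in placebo. The groups are separate in both treatments. Hspa9 had -0.26 under anti-miR-182 (adjusted p = 0.145 by limma) and -0.42 in placebo (adjusted p = 0.0259), where the call was lost without placebo day 2 replicate 2 (-0.38), placebo day 2 replicate 3 (-0.43) or placebo day 7 replicate 3 (-0.31). The treatment response between days, which tests whether these differences differ, did not pass for Hspa9. Of the chaperonin genes with the shared 18-base run shown above, Hspe1 fell by 0.44 under anti-miR-182 (adjusted p = 0.0141 by limma) and by 0.59 in placebo (adjusted p = 0.00305). Hspd1 differed by -0.25 under anti-miR-182 and -0.36 in placebo, and passed in placebo (adjusted p = 0.0347 by limma), a call lost without any 1 of 5 placebo arrays (all but day 2 replicate 1), at -0.39 to -0.29. After quantile normalization neither passed, at -0.14 for Hspe1 and 0.07 for Hspd1 under anti-miR-182 and -0.27 for Hspe1 and -0.03 for Hspd1 in placebo. A second, dimmer row of Hspd1 differed by -0.51 under anti-miR-182 and -0.83 in placebo, so the rows of this gene disagree in size.

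The ER members with an ER stress element in the promoters shown above had negative differences in both treatments by deposited values, though Hspa5 turned to 0.12 under anti-miR-182 after quantile normalization. Differences between these genes were not tested. Dnajc3, an inhibitor of the translation-repressing kinase PERK, measured 10.24, 10.27 and 10.29 at day 7, against 10.64, 11.07 and 10.95 at day 2 under anti-miR-182, and 10.21, 10.22 and 10.23, against 10.63, 10.93 and 10.97 in placebo. It fell by 0.62 under anti-miR-182 (adjusted p = 0.00392 by limma) and by 0.62 in placebo (adjusted p = 0.00379). Hsp90b1 (GRP94), the Hsp90 of the ER, fell by 0.37 under anti-miR-182 (adjusted p = 0.0329 by limma) and by 0.49 in placebo (adjusted p = 0.00903). Its call under anti-miR-182 was lost without day 2 replicate 2 or 3 or day 7 replicate 1 or 2 of that group, at -0.38 to -0.31. Hspa5 differed by -0.21 under anti-miR-182 (adjusted p = 0.365 by limma) and by -0.51 in placebo (adjusted p = 0.039). Its day 7 and day 2 arrays overlap in both treatments, and the placebo call was lost without placebo day 2 replicate 2 or 3, placebo day 7 replicate 1 or 3 or anti-miR-182 day 7 replicate 1, at -0.51 to -0.38. None of these 3 passed after quantile normalization, when they ranged from -0.32 to 0.12.

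Dnajc10 measured 9.44, 9.67 and 9.65 at day 7, against 10.18, 10.53 and 10.39 at day 2 under anti-miR-182, and 9.59, 9.60 and 9.57, against 10.16, 10.05 and 10.11 in placebo. It fell by 0.78 under anti-miR-182 (adjusted p = 0.000594 by limma) and by 0.52 in placebo (adjusted p = 0.00556). After quantile normalization it fell by 0.46 under anti-miR-182 (adjusted p = 0.0103), while the placebo difference of -0.17 did not pass (adjusted p = 0.282). Dnajb9 and Dnajb11, J proteins that work with Hspa5, had differences of -0.33 and -0.18 under anti-miR-182 and -0.38 and -0.41 in placebo, and only Dnajb11 in placebo passed (adjusted p = 0.017 by limma; -0.38 and no longer passed without day 2 replicate 2 or day 7 replicate 1).

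Among cytosolic members known from the heat shock response, most differences between days did not pass. Hspa8, the constitutive Hsp70, measured 12.44, 12.24 and 12.35 at day 7, against 12.58, 12.61 and 12.69 at day 2 under anti-miR-182, a difference of -0.28 that did not pass (adjusted p = 0.0674 by limma). In placebo it had -0.26 (adjusted p = 0.09). Dnajb1, the main J partner of inducible Hsp70, had 0.07 under anti-miR-182 and -0.04 in placebo, and Hspb1 (Hsp27) had 0.12 under anti-miR-182 and -0.04 in placebo, with overlapping groups in each case. Under anti-miR-182 Hsph1 had 0.03, Dnaja1 -0.21 and Hsp90ab1 -0.10, and in placebo Hsph1 had -0.42, Dnaja1 -0.47 and Hsp90ab1 -0.43. Of these, Dnaja1 (adjusted p = 0.0103) and Hsp90ab1 (adjusted p = 0.014) passed in placebo by limma, and neither after quantile normalization. The Hsp90ab1 call was lost without placebo day 2 replicate 3 (-0.36). Several of these signs turned with the scaling: after quantile normalization the differences under anti-miR-182 were 0.02 for Hspa8, 0.01 for Dnaja1 and 0.22 for Hsp90ab1, and in placebo 0.11 for Dnajb1 and 0.10 for Hspb1. Hsph1 kept its sign, at 0.35 under anti-miR-182 and -0.08 in placebo.

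Hspa4l, an Hsp110 protein, measured 7.73, 7.78 and 7.95 at day 7, against 8.21, 8.53 and 8.58 at day 2 under anti-miR-182, and 7.84, 7.63 and 7.68, against 8.45, 8.41 and 8.50 in placebo. It fell by 0.62 under anti-miR-182 (adjusted p = 0.00295 by limma) and by 0.74 in placebo (adjusted p = 0.00108). The atypical Hsp70 gene Hspa12b, known from endothelium, fell by 0.72 under anti-miR-182 (adjusted p = 0.00131 by limma) and by 0.53 in placebo (adjusted p = 0.00665). Of the 4 endothelial markers 1 fell at the threshold under anti-miR-182 and 0 passed in placebo. Their medians were -0.33 under anti-miR-182 and 0.12 in placebo, and their part in the result was not tested. In its brighter row Hspa12a fell by 0.42 under anti-miR-182 and by 0.72 in placebo, while its second row had -0.08 under anti-miR-182 and 0.05 in placebo, so the rows of this gene disagree. Its call under anti-miR-182 was lost without day 7 replicate 3 of that group (-0.36).

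**Figure D4:**
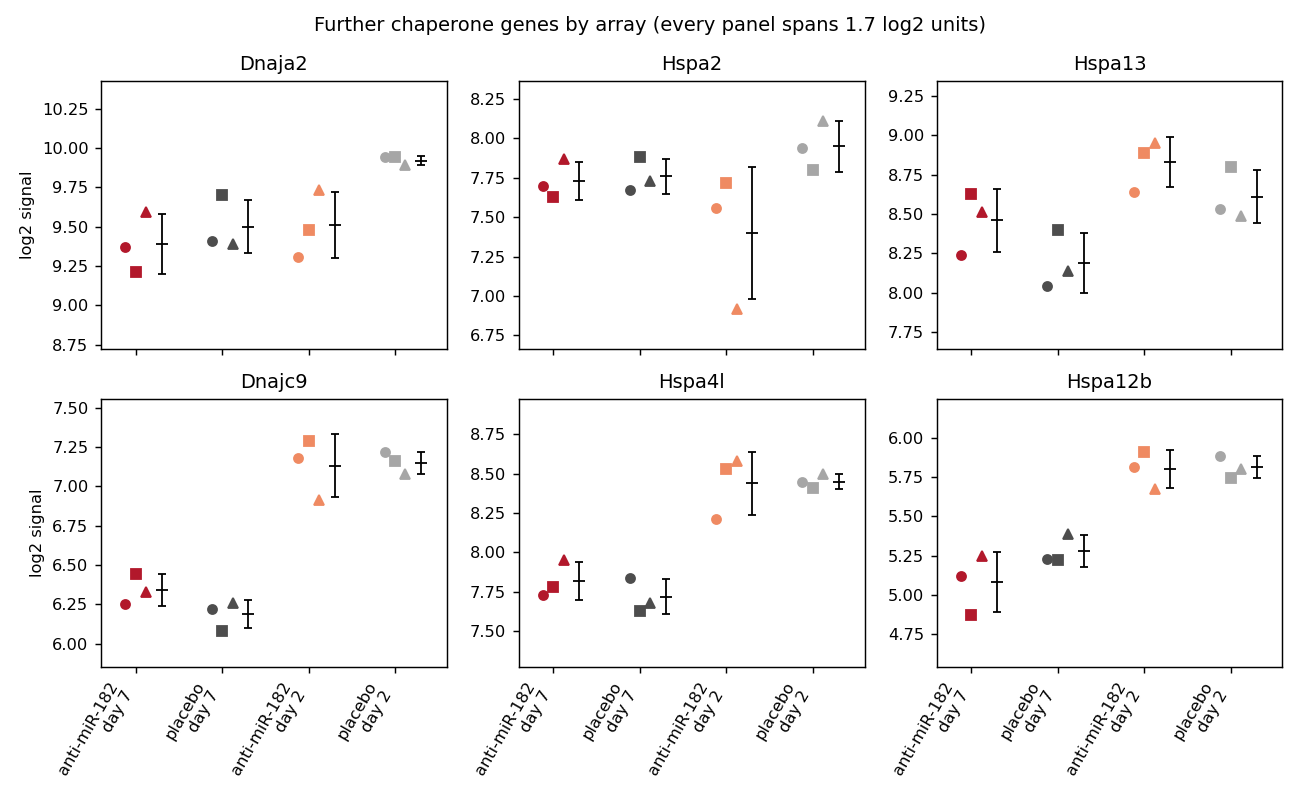
Log2 signal (vertical axis) of 6 further chaperone genes on each array, as circles, squares and triangles for replicates 1, 2 and 3 with the mean and SD at the right of each group. Dnajc9, Hspa4l and Hspa12b have every day 7 array below every day 2 array, Dnaja2 and Hspa2 have separate groups at day 2 only, and Hspa13 overlaps between treatments at both days.

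Several further members fell in both treatments. Dnajb7 and Dnajc5g, J proteins known from the testis, fell by 0.66 and 0.50 under anti-miR-182 and by 0.81 and 0.67 in placebo. The 5 testis markers had medians of -0.33 under anti-miR-182 and -0.16 in placebo, with 1 lower at the threshold in each treatment, and their part in the result was not tested. The auxilin gene Dnajc6 fell by 0.84 under anti-miR-182 and by 0.88 in placebo. Dnajc17l1 fell by 0.68 under anti-miR-182 and by 0.63 in placebo, at a mean signal of 2.78 at day 7, against 3.46 at day 2 under anti-miR-182, near the bottom of the range of the table (1.48 to 13.4). Under anti-miR-182 the calls were lost without day 2 replicate 2 or day 7 replicate 1 or 2 for Dnajb7 (-0.59 to -0.50), without day 2 replicate 2 or 3 or day 7 replicate 3 for Dnajc6 (-0.71 to -0.67) and without day 2 replicate 1 or 3 or day 7 replicate 2 or 3 for Dnajc17l1 (-0.62 to -0.59). In placebo the Dnajc17l1 call was lost without day 2 replicate 2 or 3 or day 7 replicate 3 (-0.56 to -0.50).

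The small heat shock proteins hold clients without ATP. Hspb6, abundant in muscle, measured 7.78, 7.66 and 7.78 at day 7, against 8.59, 8.70 and 7.84 at day 2 under anti-miR-182 (-0.63, which did not pass). In placebo it measured 7.84, 7.74 and 7.46, against 8.96, 8.31 and 8.06, and fell by 0.76 (adjusted p = 0.0264 by limma), a call lost without placebo day 2 replicate 1 (-0.50) or placebo day 7 replicate 3 (-0.65). Hspb7, a heart and muscle member, fell by 0.34 under anti-miR-182 (adjusted p = 0.0405 by limma) and by 0.40 in placebo (adjusted p = 0.0209). The anti-miR-182 call was lost without anti-miR-182 day 2 replicate 1 or 2, anti-miR-182 day 7 replicate 1 or 3 or placebo day 2 replicate 2, and the placebo call without placebo day 2 replicate 2 or 3 or placebo day 7 replicate 2 or 3, at -0.38 to -0.25 under anti-miR-182 and -0.39 to -0.35 in placebo. Of 7 smooth and striated muscle markers 1 passed in each treatment, and it was higher at day 7. Hspb8 measured 7.21, 6.17 and 6.40 under anti-miR-182 at day 2, against 7.03, 6.80 and 6.77 in placebo, so 1 treated array lies above and the others below the placebo arrays. Between days Hspb2 had 0.12 and Hspb3 0.09 under anti-miR-182, and Hspb2 -0.02 and Hspb3 0.23 in placebo, and neither passed.

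Falls at an adjusted p under 0.05 in both treatments also came from Hspa4, an Hsp110 protein of the cytosol, the ER membrane J proteins Dnajb12 and Dnajb14, and Dnajc5, the cysteine string protein of secretory vesicles. Under anti-miR-182 the differences were -0.53 for Hspa4, -0.52 for Dnajb12, -0.41 for Dnajb14 and -0.42 for Dnajc5, and in placebo -0.57 for Hspa4, -0.52 for Dnajb12, -0.34 for Dnajb14 and -0.45 for Dnajc5. Hspa4 measured 10.89, 10.94 and 11.02 at day 7, against 11.42, 11.47 and 11.53 at day 2 under anti-miR-182, and 10.98, 11.00 and 10.94, against 11.47, 11.58 and 11.57 in placebo. Its arrays are tight and separate in both, yet after quantile normalization it had -0.21 under anti-miR-182 and -0.22 in placebo and did not pass. The call for Dnajb14 was lost without anti-miR-182 day 2 replicate 2 (-0.37) and, in placebo, without any 1 of 5 arrays (all but day 7 replicate 1), at -0.35 to -0.30. Members that passed as higher at day 7 under anti-miR-182 after quantile normalization were Dnajb13, a J protein of cilia (0.46), Dnajc7, which bridges Hsp70 and Hsp90 (0.33), and Hspa2 (0.54), and none of them passed by deposited values. By deposited values with 1 array left out, Dnajb13 ran from 0.17 to 0.41, Dnajc7 from -0.04 to 0.06 and Hspa2 from 0.09 to 0.50. The lowest values of Dnajb13 and Hspa2 came without anti-miR-182 day 2 replicate 3.

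Partners of the chaperones were taken from lists of 22 cytosolic, 24 ER and 13 mitochondrial genes. For treatment 0 of them passed at either day, and the lists are described by their counts and medians. The smallest unadjusted p belonged to Fkbp4, an Hsp90-bound immunophilin, at 8.53, 8.43 and 8.34 under anti-miR-182 at day 2, against 8.97, 9.08 and 8.98 in placebo (-0.58, SE 0.17, adjusted p = 0.645 by limma). The exchange factor Bag1 (-0.39) and Hsf1, the heat shock transcription factor (-0.40), came next. Hsf1 measured 7.20, 7.06 and 6.56 under anti-miR-182, against 7.44, 7.15 and 7.43 in placebo, so its groups overlap. Its lowest value is on anti-miR-182 replicate 3, the array with the low injured tubule markers. At day 2, 20 of 22 cytosolic partners were lower with a median of -0.12, where 41.3% of all genes were lower. So were 18 of 24 ER partners (median -0.09) and 9 of 13 mitochondrial partners (median -0.07). Injured tubule markers (6 of 7 lower, median -0.69) and cell division markers (6 of 6 lower, median -0.35) moved the same way, and their part in the result was not tested. With time 4 cytosolic, 4 ER and 1 mitochondrial partner fell under anti-miR-182, or 18.2%, 16.7% and 7.69% of each list against 24.9% of all genes. In placebo 10 cytosolic, 6 ER and 4 mitochondrial partners fell, or 45.5%, 25% and 30.8% against 23.7% of all genes. After quantile normalization Fkbp5, another immunophilin of Hsp90, fell by 0.52 under anti-miR-182 and by 0.45 in placebo, and Derl3, of ER-associated degradation, fell by 0.55 under anti-miR-182 and by 0.39 in placebo. Hscb, a mitochondrial J protein of iron-sulfur cluster assembly, was higher at day 7 after quantile normalization, by 0.52 under anti-miR-182 and 0.45 in placebo, but did not pass by deposited values (0.30 under anti-miR-182 and 0.20 in placebo). In that scaling 7.62% of all genes were lower and 7.22% higher under anti-miR-182 at the threshold, and 7.9% and 8.14% in placebo. Fkbp5, Derl3 and Hscb were picked from the partner lists by their values and describe no list as a whole.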

How the data were processed

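Total RNA (200 ng a sample, Trizol extraction) from rat kidney was amplified and labelled with biotin for arrays, per the labels. The authors deposited log2 signals, made with RMA per the submitters' processing notes, which name no version. Of 36685 rows, 18511 carry 1 symbol, and 18166 genes with values on all 12 arrays were tested, each by its brightest row. With limma 3.58.1 (R 4.3.3) a mean was fitted for each of 4 groups, and eBayes gave 6 comparisons: treatment at day 2, at day 7, over both days and between days, and day 7 against day 2 in each treatment. Adjusted p-values are Benjamini-Hochberg over all genes of a comparison, with 0.05 as threshold. The number of arrays limits the precision. The steps were tested on simulated data, where 6.35% of calls were false.

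Named in the text are, for treatment, the 5 higher and 5 lower members ranked first by unadjusted p. For time they are the members with the largest falls, a fixed set of compartment genes and those that passed after quantile normalization. Hspa4, Dnajb12, Dnajb14, Dnajc5, Hspb2, Hspb7 and Hspb8 were added after their values were seen. Marker genes of kidney cell types, of cell division and of testis were read on every array. The members and lists were chosen with earlier results of these data known. As alternatives the days were fitted separately, eBayes was run with a trend and with its robust option, and arrays were weighted, quantile-normalized or median-centred. Further ones dropped the dimmest 25% and 50% of genes, averaged the rows of a gene, set the threshold at 0.1 and left out 1 array at a time.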

Additional observations from a re-analysis of the deposited data

How the results depend on the processing

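No paired analysis was made, because the titles give each array its own identifier and the labels give no shared replicate numbers. The numbers used here only follow the order of listing. The treatment comparisons gave 0 members past the threshold in every alternative run, and in the simulation most changes of 0.5 went undetected. The unadjusted count at day 7 was 2 with each day fitted alone or after quantile normalization. For the difference of the treatment effect between days it was 1 with a trend, the robust option or the dimmest 25% of genes left out, 2 after median-centring and 3 with array weights, which also put the cytosolic median at 0.06. With 1 array left out these counts ran from 2 to 10 at day 2, 1 to 3 at day 7, 2 to 10 over both days and 0 to 4 between days, and medians from -0.05 to 0.07 (ER, day 2), -0.04 to 0.05 (cytosol, day 7), 0.01 to 0.14 (mitochondrion, day 7), and, between days, 0.06 to 0.14 (cytosol), -0.07 to 0.08 (ER) and 0.02 to 0.14 (other). Day 7 against day 2 depends on scaling most. Under anti-miR-182, 9 members passed after quantile normalization (6 lower and 3 higher at day 7) and 9 after median-centring. In placebo 7 passed after quantile normalization, all lower, and 14 after median-centring. The counts after median-centring were not split by direction. No share of all genes was taken for that scaling, so these counts have no background. Of the 19 and 35 calls, 5 and 7 held under both scalings and every array left out. Under anti-miR-182 quantile normalization and median-centring gave medians of 0.02 and -0.02 for cytosol, -0.06 and -0.15 for ER, 0.05 and -0.07 for mitochondrion and -0.17 and -0.20 for the others. In placebo they gave -0.08 and -0.17, -0.09 and -0.26, -0.10 and -0.27, and -0.17 and -0.27, and the cytosolic median was -0.38 without the dimmest 50% of genes. With 1 array left out the placebo count ran from 21 to 37, and medians from -0.38 to -0.29 (cytosol), -0.45 to -0.32 (mitochondrion) and -0.49 to -0.39 (other) in placebo and from -0.44 to -0.25 (ER) and -0.45 to -0.27 (other) under anti-miR-182. Signs turned under anti-miR-182 after quantile normalization for Hspa8 (0.02), Hsp90ab1 (0.22), Dnaja1 (0.01), Hspa5 (0.12), Dnajb11 (0.14), Hspa9 (0.06), Hspd1 (0.07) and Dnajc15 (0.05), after median-centring for Hsp90ab1 (0.09) and Dnajb11 (0.01), and with array weights for Hsph1 (-0.01) and Dnajc7 (-0.04). In placebo Hspb1 (0.10 and 0.11) and Dnajb1 (0.11 and 0.11) turned under both scalings. With 1 array left out signs turned for Dnajc12 (-0.00 to 0.30) and Hspa5 (-0.20 to 0.07) at day 2, for Hsph1 (-0.21 to 0.19), Hspb1 (-0.02 to 0.28) and Dnajc7 (-0.04 to 0.06) with time under anti-miR-182, and for Hspb1 (-0.16 to 0.12) and Dnajb1 (-0.12 to 0.02) in placebo. Beyond the scalings themselves and the arrays left out, the cause was not tested.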
